A study of Mus musculus with 12 samples.

Results

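The liver makes most of the proteins that carry out complement, coagulation and the acute-phase response, and 50 of their genes were followed here in mouse livers with different activity of the transcription factor Nrf2. They were named as 15 complement genes, 23 genes of coagulation, fibrinolysis and their inhibitors, and 12 genes of acute-phase proteins. Of the 50, 47 had a probe set that listed exactly 1 gene symbol (13 complement, 22 coagulation and 12 acute phase), out of 5856 such genes in the whole data set. C3 and Cpb2 had no row, and the probe set of C4b listed several symbols, so these 3 were not analysed here.

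Livers were taken from 8-week-old male C57BL/6 mice of 4 genotypes, with 3 mice each and 1 array per mouse. Nrf2-null mice lack the factor. Keap1-KD mice carry a knockdown of Keap1, the protein that holds Nrf2 back, in the whole body. Keap1-HKO mice were bred from Keap1-KD and AlbCre+ mice, so that the gene is deleted where the albumin promoter drives Cre, in hepatocytes, and other cells still carry the knockdown alleles. Wild-type mice carry neither change. The labels call all mice naïve. The design asks how the mRNA of each gene moves as Nrf2 activity is removed, raised, and raised further in hepatocytes.

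Complement is a chain of plasma proteases that ends in a pore of C5b, C6, C7, C8 and C9 in the target membrane. Many coagulation factors are likewise secreted by hepatocytes as inactive proteases. Thrombin at the end of that chain turns fibrinogen, built of the products of Fga, Fgb and Fgg, into fibrin. Acute-phase proteins are those whose plasma level moves in inflammation, mainly because interleukin-6 and interleukin-1 act on hepatocytes through the STAT3, C/EBP and NF-kappa B factors.

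Values are log2 signals as normalised by the authors, in which 1 unit is a doubling, and 1 probe set stands for each gene. The targeted genes matched the labels. Nfe2l2, the gene of Nrf2, was at most 2.46 in Nrf2-null livers, against 8.81 to 8.94 in wild-type livers. Keap1 was between 5.59 and 5.92 in Keap1-KD livers and between 3.34 and 3.39 in Keap1-HKO livers, against 7.80 to 7.97 in wild-type livers. All 7 hepatocyte markers were measured, with a median, which was Serpina1c on every array, between 15.6 and 15.8. The markers did not all keep their level in Keap1-HKO livers. Their median log2 fold change there was -0.38 against wild-type livers, with 2 lower (Apoa1 and Cps1) at an unadjusted p under 0.05, and without the 2 arrays named next Apoa1 and Tat were called lower. The part of this in the members' fold changes was not tested. Arrays Keap1-HKO 1 and Nrf2-null 1 stood apart. Over all genes the mean distance from the genotype's median was 0.785 and 0.487 on them, against 0.0634 to 0.177 on the other 10 arrays. For the members alone this distance was 0.446 on Keap1-HKO 1 and 0.234 on Nrf2-null 1. On the other arrays it ran from 0.0238 to 0.243. The hepatocyte marker Apob read 11.19 on Keap1-HKO 1 and 11.86 on Nrf2-null 1, against 14.22 to 14.78 on the other arrays. Results are therefore given with and without these 2 arrays. Of 11 pancreas markers 8 were measured, and their median per array ran from 2.69 to 14.4 in Keap1-HKO livers, with both high values on arrays 2 and 3, against 2.43 to 2.79 in Nrf2-null, 2.46 to 2.54 in Keap1-KD and 2.46 in wild-type livers. Of 6 skeletal muscle markers 5 were measured, and their median reached 12.03 on a Keap1-HKO array and 11.3 on a wild-type array, against at most 2.58 in Nrf2-null and 2.31 in Keap1-KD livers. Of 7 neutrophil markers 0 were measured. In whole liver, fewer cells of a type and less RNA per cell cannot be told apart.

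Signals of different probe sets are not amounts that can be set against each other, so each gene is compared only with itself. Only Lcn2 had a genotype mean under an intensity of 100 (6.64 on the log2 scale), which is the limit the authors used to keep probe sets. The members varied little between mice of a genotype: their median SD was 0.181, against 0.291 over all genes, and without the 2 arrays it was 0.133, against 0.154. The narrowest was Fgg with an SD of 0.04 and the widest were Saa1 at 0.81, the coagulation factor F9 at 0.78 and, within complement, Hc at 0.49. For F9 the SD was 0.08 without the 2 arrays, while for Saa1 it was 0.88.

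**Figure D1:**
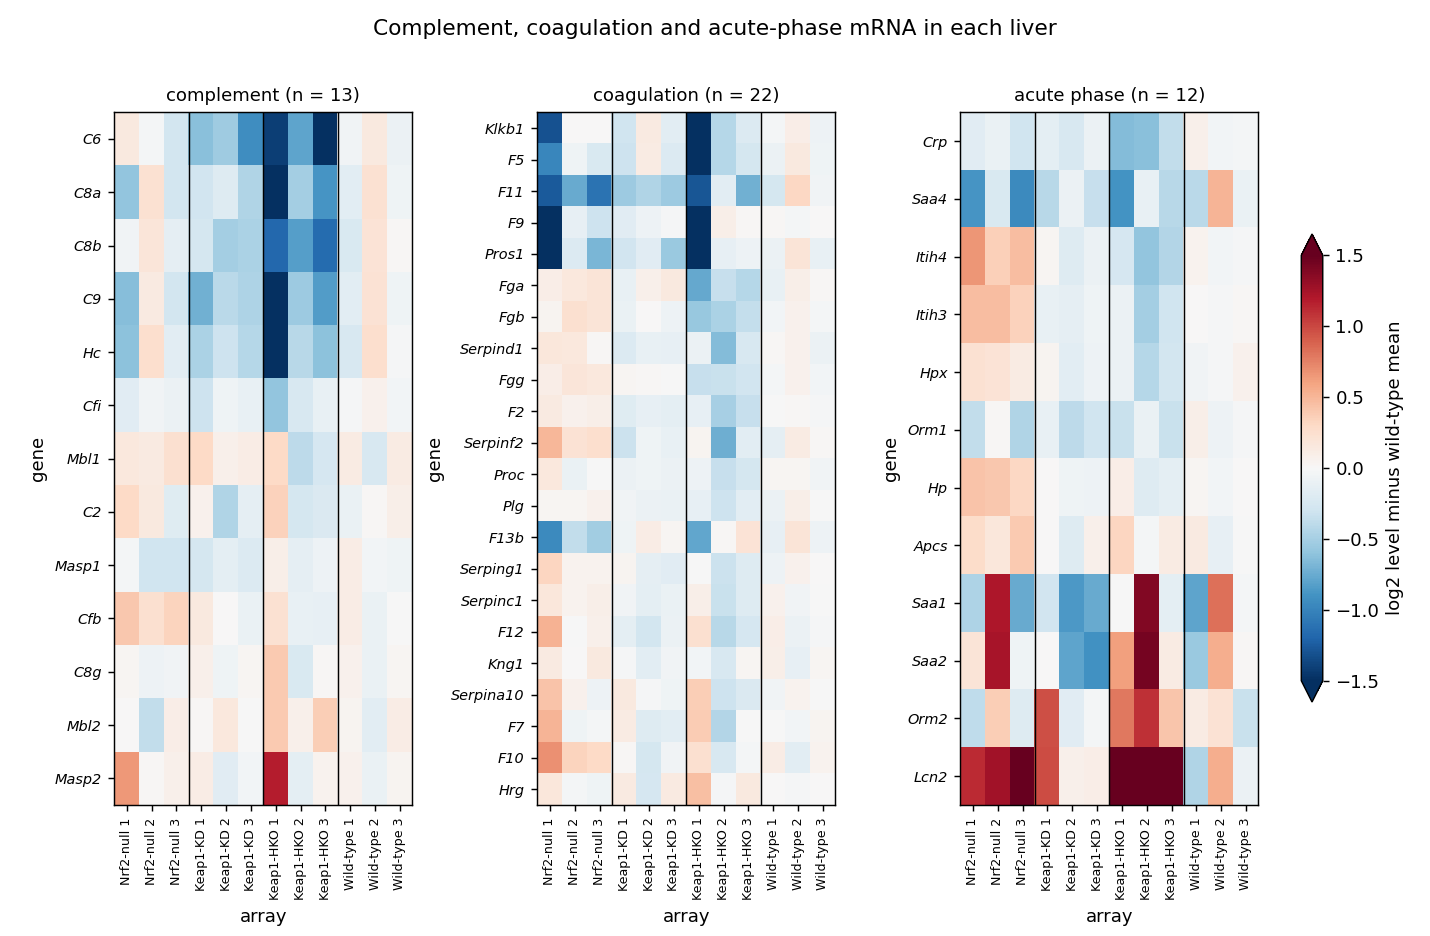
Each row is a gene and each column an array, grouped as Nrf2-null, Keap1-KD, Keap1-HKO and wild-type, and the colour is the log2 signal minus the wild-type mean of that gene (blue lower, red higher, capped at 1.5). The rows of C6, C8a, C8b, C9 and Hc are blue in the 3 Keap1-HKO livers, and Lcn2 is red there. For F5 and Klkb1 the array Keap1-HKO 1 is the darkest blue, and for F9 both Keap1-HKO 1 and Nrf2-null 1 are at the cap.

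The clearest differences were between Keap1-HKO and wild-type livers. There 5 of the 47 members passed an adjusted p of 0.05 in limma. Lcn2 rose, and C8b, C6, Crp and Fgb fell, the 1 member higher standing beside 2.1% of all genes called higher and the 4 lower members beside 1.84% of all genes called lower. At an unadjusted p under 0.05, 2 members were higher and 13 lower, where 9.26% and 9.39% of all genes were. All 3 Keap1-HKO arrays lay above all 3 wild-type arrays for 2 members (12.7% of all genes) and below them for 20 members (14.9% of all genes). The fold change was negative for 38 of 47 members (80.9%), against 51.2% of all genes. The median log2 fold change was -0.12 for complement, -0.25 for coagulation and -0.17 for acute-phase members, against -0.01 over all genes. It was -0.24, -0.29 and -0.19 without the 2 arrays, against -0.04 over all genes. Without Keap1-HKO 2 the complement median was 0.00722, in a fit that kept Keap1-HKO 1, which stood apart, beside Keap1-HKO 3. Per array, the complement members' median difference from the wild-type mean was 0.09 on Keap1-HKO 1, -0.26 on Keap1-HKO 2 and -0.21 on Keap1-HKO 3. Duncan's multiple range test, which the methods name, called 14 members there and 12% of all genes.

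The proximal promoters of the 5 called members are printed first, since the genes were called in the same comparison and Nrf2 acts by binding a promoter sequence, the antioxidant response element. Each is the RefSeq window of 250 bases before to 50 bases after the start of the gene in build GRCm38.p6, on the strand of the gene. Capitals mark matches, on either strand, to a C/EBP motif (TTNCNNAA) or a STAT motif (TTCNNNGAA). Lcn2, which was higher, lies on chromosome 2 at chr2:32387690-32387989, minus strand.
Lcn2: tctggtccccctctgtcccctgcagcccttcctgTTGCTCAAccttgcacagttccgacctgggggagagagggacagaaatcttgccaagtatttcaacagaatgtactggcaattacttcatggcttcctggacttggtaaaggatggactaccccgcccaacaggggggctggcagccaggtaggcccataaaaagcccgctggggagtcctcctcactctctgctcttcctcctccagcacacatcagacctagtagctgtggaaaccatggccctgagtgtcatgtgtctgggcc
The other 4 were lower in Keap1-HKO livers. C8b is at chr4:104766067-104766366 and C6 at chr15:4726960-4727259, both on the plus strand.
C8b: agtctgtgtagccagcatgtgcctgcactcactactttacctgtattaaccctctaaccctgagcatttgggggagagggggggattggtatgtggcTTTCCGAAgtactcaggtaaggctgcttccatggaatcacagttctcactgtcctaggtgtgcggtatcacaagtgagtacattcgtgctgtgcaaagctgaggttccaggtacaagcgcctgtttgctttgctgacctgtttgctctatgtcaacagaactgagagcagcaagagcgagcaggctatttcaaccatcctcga
C6: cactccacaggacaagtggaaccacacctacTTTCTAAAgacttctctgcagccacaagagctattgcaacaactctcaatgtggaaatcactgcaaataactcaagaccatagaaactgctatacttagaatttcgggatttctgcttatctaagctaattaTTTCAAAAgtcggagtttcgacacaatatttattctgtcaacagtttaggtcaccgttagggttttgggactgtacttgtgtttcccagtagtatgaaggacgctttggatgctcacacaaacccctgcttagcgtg
Crp is at chr1:172697806-172698105, plus strand, and Fgb at chr3:83049814-83050113, minus strand.
Crp: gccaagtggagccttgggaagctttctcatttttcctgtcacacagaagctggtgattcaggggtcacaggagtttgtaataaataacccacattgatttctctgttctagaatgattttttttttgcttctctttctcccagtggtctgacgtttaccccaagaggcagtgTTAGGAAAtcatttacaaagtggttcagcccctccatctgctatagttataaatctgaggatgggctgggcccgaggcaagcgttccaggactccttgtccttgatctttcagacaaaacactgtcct
Fgb: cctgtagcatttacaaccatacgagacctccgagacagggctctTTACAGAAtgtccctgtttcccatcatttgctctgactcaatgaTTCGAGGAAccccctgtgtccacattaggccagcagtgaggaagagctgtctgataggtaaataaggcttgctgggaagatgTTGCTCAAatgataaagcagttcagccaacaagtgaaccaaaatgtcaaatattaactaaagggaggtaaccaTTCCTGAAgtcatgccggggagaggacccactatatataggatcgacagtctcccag
The core of the antioxidant response element, TGACNNNGC, was found in none of these 5 windows, and no matches overlapped there. Bases outside the windows were not searched, so a core farther from the start would be missed. The paper's own search for this core, in drug-processing genes, reached farther upstream. Windows were at hand for 36 of the 47 members. The core was in 5 of the 36 (13.9%: Hpx, Itih3, Klkb1, Mbl1 and Serpind1), against 12.4% of all 32851 windows. The STAT motif was in 8 of the 36 (22.2%), against 8.3% of all windows, and the C/EBP motif in 22 (61.1%), against 40.7%. Among the called members only Fgb held the STAT motif, at position -162 from the start, together with 3 C/EBP matches. Fga, the neighbouring fibrinogen gene, held a STAT match at position -234, and Fgg held neither motif. A match is a description of letters and not a bound site.

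Both complement genes that fell in Keap1-HKO livers, C8b and C6, belong to the terminal pathway. C8b, which encodes the beta chain of C8, gave 11.96, 12.20 and 11.88 in Nrf2-null livers, 11.75, 11.51 and 11.54 in Keap1-KD livers, 10.83, 11.19 and 10.86 in Keap1-HKO livers, and 11.79, 12.22 and 12.03 in wild-type livers. All Keap1-HKO values were lower than every other value. The mRNA of C8b fell by 51.9% ± 3.97 (SEM, n = 3) in Keap1-HKO livers, with a log2 fold change of -1.06 ± 0.16 (SE) and a limma adjusted p of 0.00542. Without the 2 arrays the log2 fold change was -0.99, with an adjusted p of 0.00609. On Keap1-HKO 1, the array of that genotype with the low pancreas markers, C8b was 10.83, the lowest of the 12. That array is also 1 of the 2 that stood apart, and the part of pancreas RNA in the fall was not tested.

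C6, which joins C5b to start the pore, gave 10.98, 10.80 and 10.56 in Nrf2-null livers, 10.21, 10.30 and 9.91 in Keap1-KD livers, 9.42, 10.04 and 8.74 in Keap1-HKO livers, and 10.79, 10.98 and 10.74 in wild-type livers. Keap1-HKO values lay below all wild-type values and overlapped those of Keap1-KD livers. C6 mRNA fell by 60.6% ± 9.89 in Keap1-HKO livers (log2 fold change -1.43 ± 0.28, adjusted p 0.0186). The call was lost without wild-type 1, 2 or 3 (adjusted p 0.0629, 0.0881 and 0.0672).

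C9, C8a and Hc also had negative fold changes, without passing the test on 12 arrays. C9, which polymerises to the pore wall, had a log2 fold change of -1.04 ± 0.30 in Keap1-HKO livers (adjusted p 0.0934), C8a, the alpha chain of C8, of -1.15 ± 0.35 (adjusted p 0.116), and Hc, the gene of C5, of -0.995 ± 0.37 (adjusted p 0.182). All 3 Keap1-HKO arrays lay below the wild-type arrays for each of the 3 genes. Keap1-HKO 1 was far below its fellows for them, with 11.58 for C8a against 13.13 and 12.75 on the other 2. Without the 2 arrays the log2 fold changes were -0.69 for C9 (adjusted p 0.0341), -0.70 for C8a (0.0429) and -0.51 for Hc (0.0839), so that C9 and C8a passed there and Hc did not. C8g, the gamma chain of C8, was 14.49, 13.86 and 14.10 in Keap1-HKO livers and 14.16, 13.99 and 14.12 in wild-type livers, with overlapping values. C8a and C8b are adjacent on chromosome 4, with 0 protein-coding genes between them, while C6 and C9 on chromosome 15 have 8 between them.

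None of the lectin-pathway genes Mbl1, Mbl2, Masp1 and Masp2, nor C2, Cfb and Cfi of the other activating and regulating steps, passed the test in Keap1-HKO livers. Their log2 fold changes ran from -0.31 for Cfi, the protease that inactivates C3b, to 0.36 for Masp2. The value for Masp2 rested on Keap1-HKO 1, which read 11.14, against 9.81 and 10.01 on the other Keap1-HKO arrays. The other probe set of Masp2 had a log2 fold change of -0.21. Masp1 had -0.04, and its other 2 probe sets had -0.34 and -0.60. The probe sets of C2 lay between -0.04 and 0.04.

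The 1 coagulation gene that fell in Keap1-HKO livers was Fgb, the beta chain of fibrinogen. Its signal was 15.56, 15.76 and 15.72 in Nrf2-null livers, 15.42, 15.53 and 15.44 in Keap1-KD livers, 14.96, 15.05 and 15.17 in Keap1-HKO livers, and 15.49, 15.59 and 15.49 in wild-type livers. The Keap1-HKO values were the lowest of the 12. Fgb mRNA fell by 27.4% ± 3.03 in Keap1-HKO livers (log2 fold change -0.46 ± 0.11, adjusted p 0.0497). This call stood at the threshold. It remained without Nrf2-null 1 (adjusted p 0.0453) and was lost without any other single array (adjusted p 0.0678 to 0.201).

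Fga and Fgg, the alpha and gamma chains, had negative fold changes too. Fga gave 15.42, 15.48 and 15.52 in Nrf2-null livers, 15.21, 15.40 and 15.47 in Keap1-KD livers, 14.56, 14.98 and 14.89 in Keap1-HKO livers, and 15.21, 15.42 and 15.34 in wild-type livers. Fgg gave 15.42, 15.51 and 15.48 in Nrf2-null livers, 15.35, 15.34 and 15.32 in Keap1-KD livers, 14.99, 14.99 and 15.04 in Keap1-HKO livers, and 15.30, 15.40 and 15.29 in wild-type livers. For both genes the Keap1-HKO livers lay below all 9 others. The log2 fold changes were -0.51 ± 0.14 for Fga (adjusted p 0.0773) and -0.32 ± 0.10 for Fgg (adjusted p 0.116) on 12 arrays. Without the 2 arrays they were -0.39 (adjusted p 0.0492) and -0.31 (adjusted p 0.0432). The 3 fibrinogen genes stand side by side on chromosome 3, with 0 protein-coding genes between Fgg and Fga and between Fga and Fgb.

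Of the other 19 coagulation genes 0 passed in limma on 12 arrays, where 3.94% of all genes did. Duncan's test called 4 (F2, F11, Plg and Serpind1), where it called 12% of all genes. At an unadjusted p under 0.05 stood F2, the gene of prothrombin, and F11, a protease of the contact pathway. F2 had a log2 fold change of -0.32 ± 0.12 (adjusted p 0.183) and passed without the 2 arrays, at -0.42 (adjusted p 0.0161). F11 had a log2 fold change of -0.72 ± 0.26 (adjusted p 0.18), with values that overlapped those of wild-type livers. In Keap1-HKO livers F9 was 9.35, 11.70 and 11.62, against 11.63, 11.58 and 11.62 in wild-type livers, so that only Keap1-HKO 1 was low. The same array was low for F5, Klkb1 (plasma kallikrein) and Pros1, whose log2 fold changes were -0.89, -0.93 and -0.60 on 12 arrays and -0.34, -0.32 and -0.10 without the 2 arrays. The inhibitor genes Serpinc1 (antithrombin), Serping1 (C1 inhibitor) and Serpina10 were not called on either set of arrays. Hrg, histidine-rich glycoprotein, was on 12 arrays the only coagulation gene with a positive fold change in Keap1-HKO livers, at 0.19, and it did not pass. F13b, Hrg and F9 were positive without the 2 arrays, at 0.11, 0.06 and 0.05.

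Among acute-phase genes Lcn2 was the 1 called higher. Its genotype means were intensities of 150 in Nrf2-null and 391 in Keap1-HKO livers, against 79.4 in Keap1-KD and 60.9 in wild-type livers. By these means it passed the authors' limit of 100 only through Nrf2-null and Keap1-HKO livers, where it was high. Its calls against wild-type and Keap1-KD livers are therefore not independent of that limit. Lcn2 encodes lipocalin 2, which binds bacterial siderophores, and its signal was 7.04, 7.18 and 7.46 in Nrf2-null livers, 6.90, 6.01 and 6.02 in Keap1-KD livers, 8.01, 9.53 and 8.29 in Keap1-HKO livers, and 5.47, 6.47 and 5.84 in wild-type livers. Keap1-HKO livers lay above all others and Nrf2-null livers above all wild-type livers. Since the 3 wild-type arrays were under an intensity of 100, the rise in Keap1-HKO livers is given as at least 3.91-fold, that genotype's mean set against 100. The limma adjusted p was 0.00542 on the values as deposited, 0.00616 when each value under an intensity of 100 was set to 100, and 0.00245 without the 2 arrays. Keap1-HKO 2, which had high pancreas markers, gave the highest value, and Keap1-HKO 1, which had low ones and stood apart, gave 8.01. The part of pancreas RNA in these values was not tested.

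Crp, C-reactive protein, a minor acute-phase protein in mice, gave 13.19, 13.26 and 13.06 in Nrf2-null livers, 13.21, 13.11 and 13.27 in Keap1-KD livers, 12.71, 12.73 and 12.99 in Keap1-HKO livers, and 13.44, 13.31 and 13.32 in wild-type livers. The Keap1-HKO livers were lowest and the wild-type livers highest, with no overlap. Crp mRNA fell by 31.4% ± 4.36 in Keap1-HKO livers (log2 fold change -0.55 ± 0.12, adjusted p 0.0332). The call remained without Nrf2-null 1 or Keap1-HKO 3 (adjusted p 0.0416 and 0.0335) and was lost without any other single array (adjusted p 0.051 to 0.133). Apcs, its neighbour on chromosome 1 with 0 protein-coding genes between them, encodes serum amyloid P. It had 11.55, 11.21 and 11.35 in Keap1-HKO livers and 11.37, 11.10 and 11.22 in wild-type livers, which overlap. Hpx, the heme carrier hemopexin, had 15.04, 14.71 and 14.86 in Keap1-HKO livers and 15.08, 15.12 and 15.20 in wild-type livers, with no overlap (log2 fold change -0.26 ± 0.12, adjusted p 0.279).

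**Figure D2:**
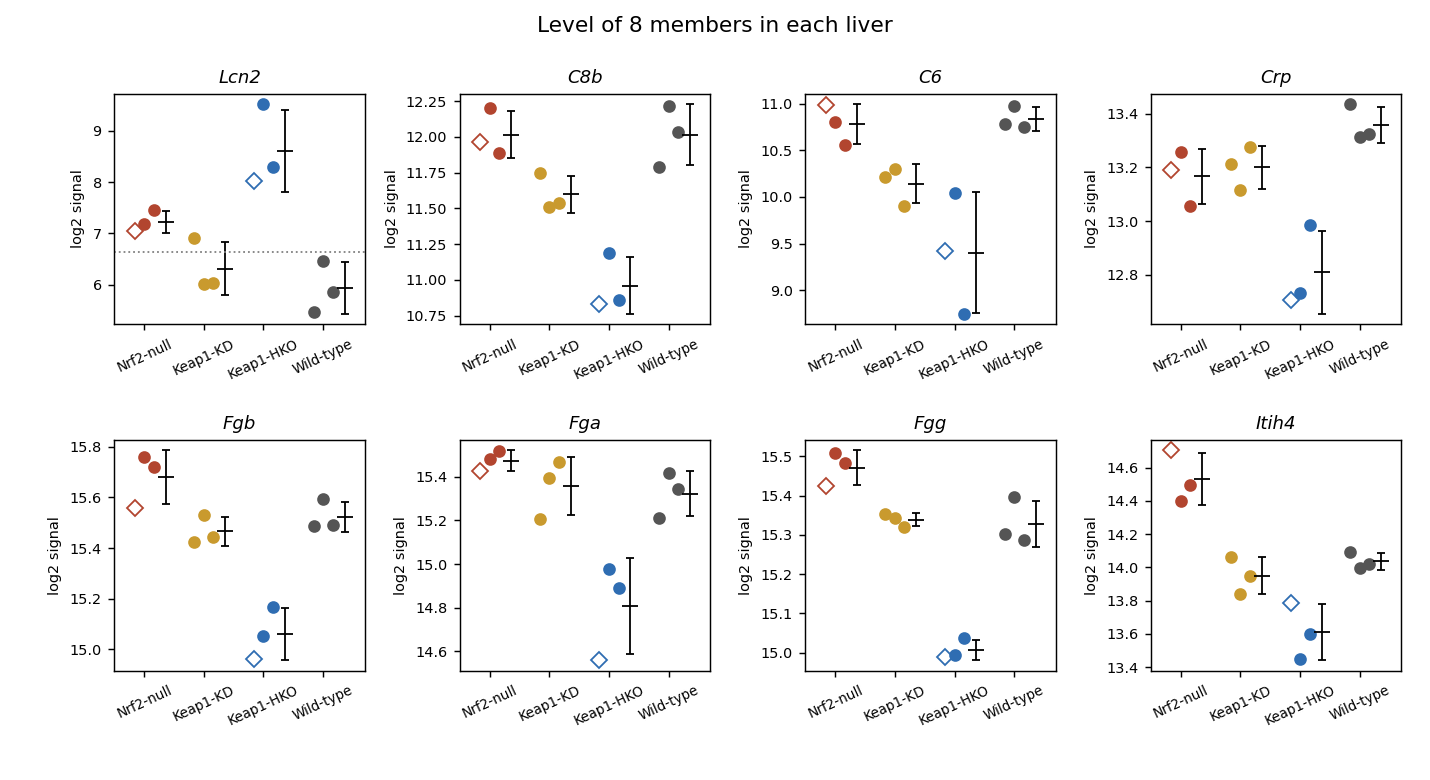
The panels show the log2 signal of 8 members in each liver by genotype, with the mean ± SD of 3 livers beside the points; each vertical axis has its own range and does not start at 0. Open diamonds are Nrf2-null 1 and Keap1-HKO 1, and the dotted line for Lcn2 is an intensity of 100. Keap1-HKO points are the highest for Lcn2 and the lowest of all genotypes for C8b, Crp, Fgb, Fga, Fgg and Itih4.

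Itih4 and Itih3 encode heavy chains of the inter-alpha-trypsin inhibitor family and lie next to each other on chromosome 14. Itih4 was 14.70, 14.40 and 14.50 in Nrf2-null livers, 14.06, 13.84 and 13.95 in Keap1-KD livers, 13.78, 13.45 and 13.60 in Keap1-HKO livers, and 14.093, 13.9955 and 14.0227 in wild-type livers. Itih3 was 13.80, 13.80 and 13.69 in Nrf2-null livers, 13.23, 13.20 and 13.27 in Keap1-KD livers, 13.25, 12.82 and 13.03 in Keap1-HKO livers, and 13.35, 13.31 and 13.35 in wild-type livers. Both genes were highest in Nrf2-null livers, with no overlap with any other genotype, and their Keap1-HKO values lay below all wild-type values. The log2 fold changes in Keap1-HKO livers were -0.43 ± 0.13 for Itih4 (adjusted p 0.123) and -0.30 ± 0.12 for Itih3 (adjusted p 0.23). Without the 2 arrays they were -0.51 (adjusted p 0.0137) and -0.41 (adjusted p 0.0268).

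Without Keap1-HKO 1 and Nrf2-null 1, 12 members were called between Keap1-HKO and wild-type livers. The 11 lower ones were C6, C8a, C8b, C9, F2, Fga, Fgb, Fgg, Itih3, Itih4 and Crp, where 6.75% of all genes were called lower, and Lcn2 was the 1 higher, where 4.71% were called higher. The 5 members called on 12 arrays were among these 12. The 2 Keap1-HKO arrays in this fit are those with high pancreas markers (medians of 14.4 and 11.4) and high muscle markers (12.03 and 10.2), whose part in the calls was not tested.

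**Figure D3:**
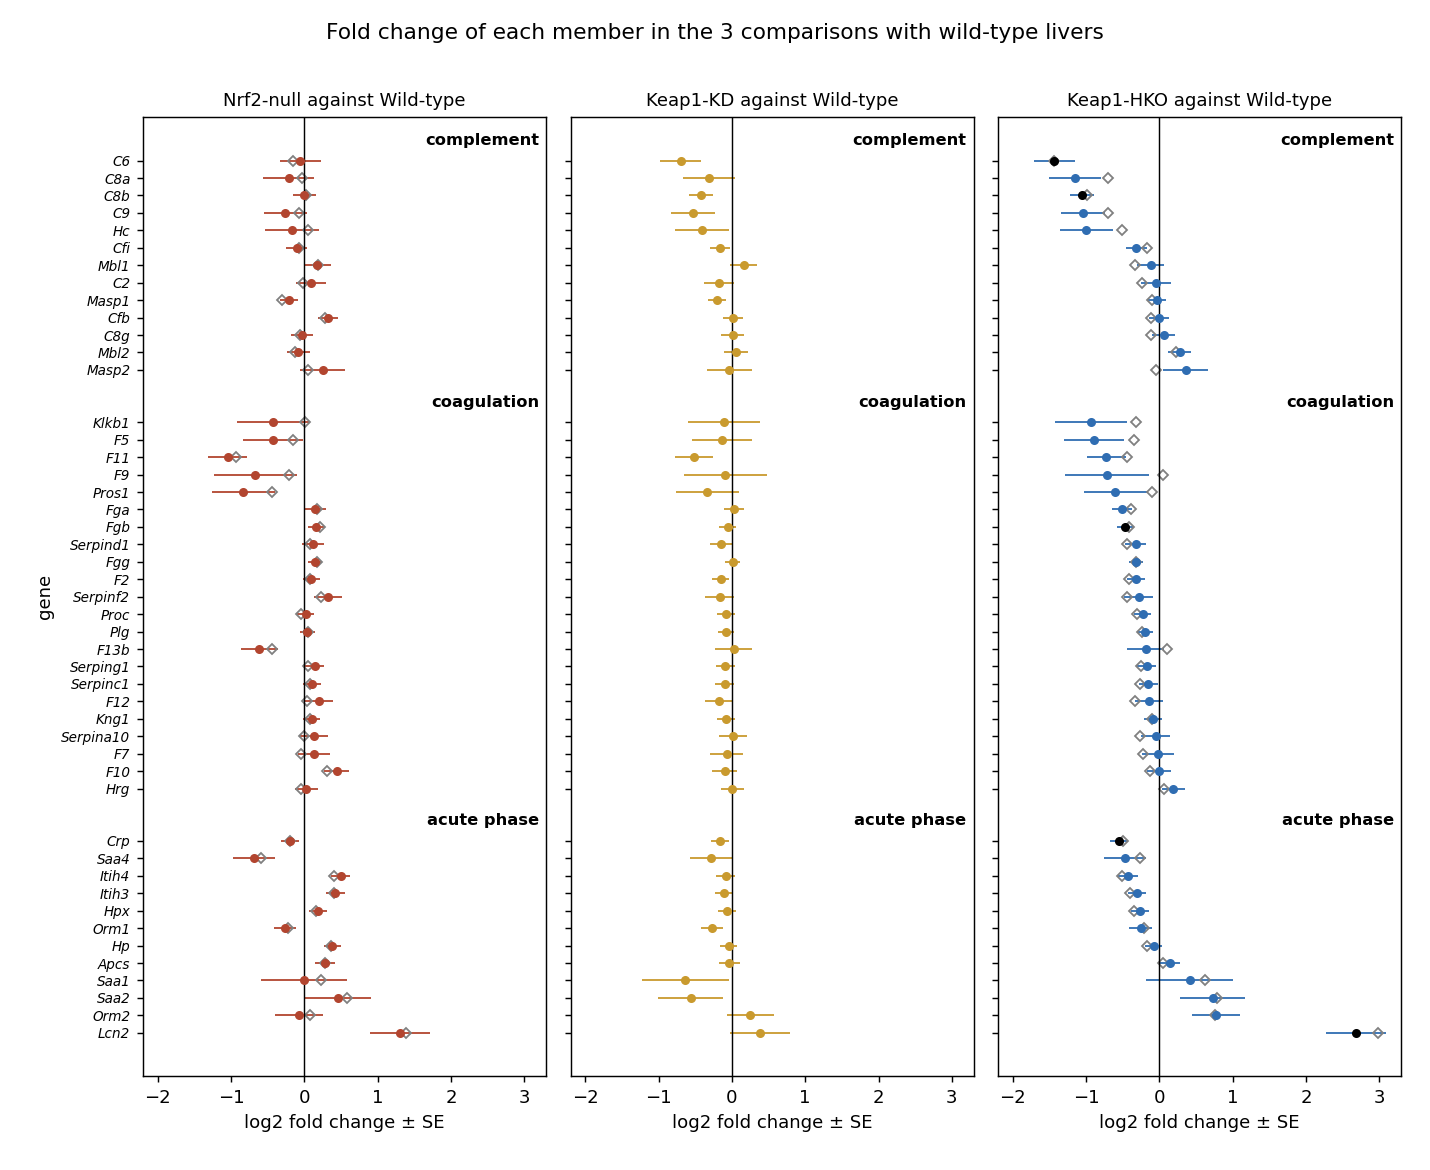
The log2 fold change ± SE of each of the 47 members is drawn for Nrf2-null, Keap1-KD and Keap1-HKO against wild-type livers on a shared axis, by class and in the order of the Keap1-HKO values. For Lcn2 the 3 wild-type values lie under an intensity of 100, so its points show the fit and not a measured size. Filled black circles passed an adjusted p of 0.05 on 12 arrays, and open grey diamonds give the value without Nrf2-null 1 and Keap1-HKO 1. Black circles are found only in the Keap1-HKO panel (5 genes), and there 38 of 47 circles lie left of 0.

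Keap1-HKO livers were also set against Keap1-KD livers, a comparison of the hepatocyte deletion with the milder knockdown. Only Lcn2 passed, with a log2 fold change of 2.30 ± 0.41 and an adjusted p of 0.025, at least 3.68-fold with the 2 Keap1-KD arrays under an intensity of 100 raised to it. It was the 1 member called higher, where 0.786% of all genes were called higher, and 0 members were called lower, where 0.649% were. By Duncan's test 7 were lower and 1 higher (9.61% of all genes), and at an unadjusted p under 0.05 in limma 2 were higher and 8 lower, where 6.75% and 6.1% of all genes were. The Lcn2 call was lost without Keap1-KD 2, Keap1-KD 3, Keap1-HKO 3 or wild-type 3 (adjusted p 0.114, 0.119, 0.0552 and 0.0533). C8b had a log2 fold change of -0.64 (adjusted p 0.0999), Fga of -0.55 (0.101), Fgb of -0.41 (0.142) and Fgg of -0.33 (0.174). For these 4 genes all Keap1-HKO arrays lay below all Keap1-KD arrays. C6 had -0.74 (adjusted p 0.286), with values that overlap, and C8a had -0.84 (adjusted p 0.347), with none that do. With the replicate number as a block, 2 members were called, Lcn2 and Fga, where 2.13% of all genes were.

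In Keap1-KD livers 0 members passed against wild-type livers in limma (0.0683% of all genes). At an unadjusted p under 0.05, 0 were higher and 2 lower (1.42% and 1.13% of all genes), and Duncan's test called 1, C8b (2.25% of all genes). The 2 lower genes were C8b, with a log2 fold change of -0.42 ± 0.16, and C6, with -0.70 ± 0.28, both with an adjusted p of 1. These are 2 of the genes called lower in Keap1-HKO livers, but both comparisons use the same 3 wild-type arrays. All 3 Keap1-KD arrays lay below all 3 wild-type arrays for 17 members (8.21% of all genes) and above them for 0 (7.02%). The 17 held 7 complement, 7 coagulation and 3 acute-phase members. The fold change was negative for 36 of 47 (76.6%), against 52.6% of all genes. The sizes were small: the median log2 fold change was -0.18 for complement, -0.09 for coagulation and -0.10 for acute-phase members, against -0.01 over all genes. C9 had a log2 fold change of -0.53, F11 of -0.52, Orm1, the gene of alpha-1-acid glycoprotein, of -0.27, and F2 of -0.15, each with an adjusted p of 1. Serpind1 (heparin cofactor II), Crp and Saa2 had -0.15, -0.16 and -0.56, also with an adjusted p of 1, and only Saa2 overlapped wild-type livers.

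In Nrf2-null livers 0 members passed against wild-type livers in limma, where 0.41% of all genes did. At an unadjusted p under 0.05, 6 were higher and 3 lower (3.3% and 3.62% of all genes), and Duncan's test called 7 higher and 1 lower (5.4% of all genes in either direction). All 3 Nrf2-null arrays lay above the wild-type arrays for 13 members (12.1% of all genes) and below them for 6 (8.76%). The 13 held 2 complement, 5 coagulation and 6 acute-phase members, the last out of 12. The median log2 fold change was -0.06 for complement, 0.10 for coagulation and 0.23 for acute-phase members, against 0.02 over all genes. Without the 2 arrays it was -0.03, 0.04 and 0.25, against 0.01 over all genes. In that fit 0 members were called, where 1.01% of all genes were.

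The acute-phase genes with the lowest p in Nrf2-null livers were Itih4, Itih3 and Hp. Their log2 fold changes were 0.50 ± 0.13 (adjusted p 0.273), 0.42 ± 0.12 (0.323) and 0.38 ± 0.11 (0.342). Hp, the hemoglobin binder haptoglobin, read 15.28, 15.26 and 15.17 in Nrf2-null livers and 14.89, 14.81 and 14.87 in wild-type livers, with no overlap. Lcn2 was at least 1.5-fold higher against an intensity of 100 (adjusted p 0.416). All Nrf2-null and all Keap1-HKO livers thus lay above all wild-type livers for Lcn2, and only the Keap1-HKO comparison passed.

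Among the other classes F11 had the lowest p in Nrf2-null livers. Its signal was 8.05, 8.55 and 8.20 in Nrf2-null livers, 8.76, 8.85 and 8.77 in Keap1-KD livers, 8.03, 9.15 and 8.59 in Keap1-HKO livers, and 9.05, 9.62 and 9.26 in wild-type livers. All Nrf2-null and all Keap1-KD values lay below all wild-type values. The log2 fold change in Nrf2-null livers was -1.04 ± 0.26 (adjusted p 0.238). F13b, the carrier subunit of factor XIII, had -0.61 ± 0.25 (adjusted p 0.659) and Cfb, the protease of the alternative complement pathway, had 0.33 ± 0.14 (adjusted p 0.677). Masp1 and Mbl1, a protease and a lectin of the lectin pathway, had -0.21 and 0.18, both with an adjusted p of 0.823, and the other 2 probe sets of Masp1 had positive values, at 0.27 and 0.24. F10 had 0.44 ± 0.17 (adjusted p 0.591), but its other 2 probe sets had the opposite sign, at -0.41 and -0.42. Pros1 and F9 were low mainly on Nrf2-null 1, where F9 read 10.03, against 11.49 and 11.30 on the other Nrf2-null arrays.

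Over the 4 genotypes together limma's F test called 6 members, where 4.83% of all genes were called. They were C8b (adjusted p 0.00794), Lcn2 (0.011), Itih4 (0.0126), Itih3 (0.0283), C6 (0.0322) and Fgb (0.0369). Crp was not among them (adjusted p 0.0965). The F test called 10 members without the 2 arrays, where 12.6% of all genes were.

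The serum amyloid A genes, which rise far in inflammation, varied between mice of the same genotype. Saa1 read 10.56, 12.24 and 10.28 in Nrf2-null livers, 10.74, 10.17 and 10.28 in Keap1-KD livers, 11.02, 12.42 and 10.88 in Keap1-HKO livers, and 10.23, 11.86 and 10.99 in wild-type livers. Liver 2 was highest in all genotypes but Keap1-KD, and none of the Keap1-KD livers reached 11. Saa2 had 8.81, 9.86 and 8.56 in Nrf2-null livers, 8.62, 7.83 and 7.71 in Keap1-KD livers, 9.23, 10.06 and 8.74 in Keap1-HKO livers, and 8.06, 9.16 and 8.64 in wild-type livers. Saa2 was highest in the same 3 livers. Both genes lay higher in all Keap1-HKO than in all Keap1-KD livers, with log2 fold changes of 1.05 ± 0.59 (adjusted p 0.484) and 1.29 ± 0.45 (adjusted p 0.247). Saa1 and Saa2 are close paralogs that lie side by side, and binding of one transcript by the probes of the other was not tested. Socs3, the feedback inhibitor of interleukin-6 signalling, was highest in the same liver of each of these 3 genotypes, with 9.29 in Nrf2-null, 11.83 in Keap1-HKO and 9.07 in wild-type livers. It was also highest in liver 2 of Keap1-KD mice, at 8.53, where Saa1 was the lowest of its genotype.

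Saa4, the constitutive member of the family, read 10.83, 11.48 and 10.76 in Nrf2-null livers and 11.30, 12.22 and 11.61 in wild-type livers, which overlap. Orm1 and Orm2 code for alpha-1-acid glycoproteins and also share sequence. Orm2 read 8.26, 8.58 and 7.89 in Keap1-HKO livers and 7.60, 7.69 and 7.14 in wild-type livers, with no overlap (log2 fold change 0.77 ± 0.32, adjusted p 0.242). Orm1 had 14.84, 15.08 and 14.84 in Keap1-HKO livers and 15.26, 15.10 and 15.16 in wild-type livers, so this paralog had the opposite sign, at -0.26 (adjusted p 0.373).

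**Figure D4:**
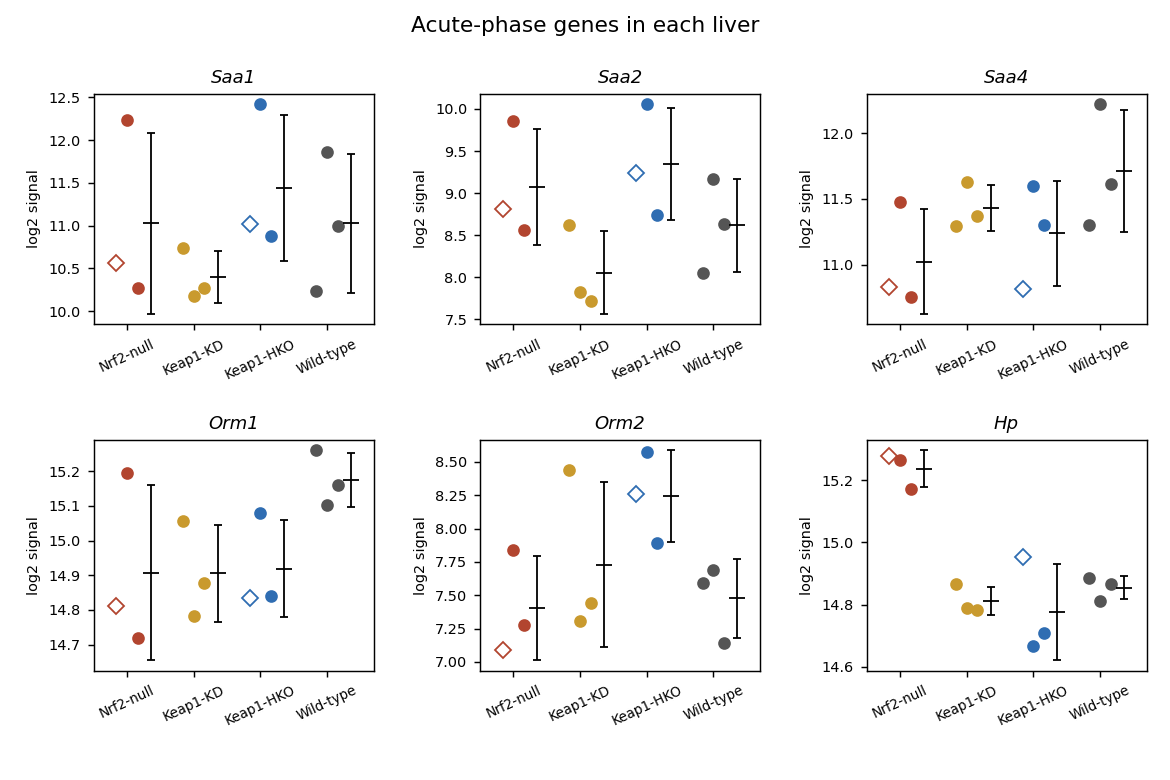
The panels show the log2 signal of 6 acute-phase genes in each liver by genotype, with the mean ± SD of 3 livers; the vertical axes differ and do not start at 0, and open diamonds are Nrf2-null 1 and Keap1-HKO 1. Saa1 and Saa2 each have 1 high liver in Nrf2-null, Keap1-HKO and wild-type mice, and the 3 Nrf2-null livers lie above all others for Hp.

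The pathways hold further genes that were not members. Of all genes, limma called 0.41% in Nrf2-null, 0.0683% in Keap1-KD and 3.94% in Keap1-HKO livers against wild-type livers. At an unadjusted p under 0.05, 3.3%, 1.42% and 9.26% were higher and 3.62%, 1.13% and 9.39% lower, in that order. The counts of the lists below are to be read beside these shares. Of 29 other complement genes 15 were measured, and 0 rose and 1 fell in Keap1-HKO livers (0 and 3 at an unadjusted p under 0.05). This was Fcna, ficolin A, a lectin that activates complement and is made by macrophages. Fcna read 6.49, 7.57 and 7.65 in Keap1-HKO livers and 8.32, 9.04 and 9.08 in wild-type livers (log2 fold change -1.58, adjusted p 0.0245). Of 8 Kupffer cell markers 5 were measured, with medians per array of 8.68 to 9.62 in Keap1-HKO and 9.71 to 10.1 in wild-type livers. This median was Vsig4 on every array, and the other measured markers overlapped between these genotypes. The median log2 fold change of the 5 was -0.14 in Keap1-HKO livers. The part of Kupffer cells in the fall of Fcna was not tested. In Nrf2-null livers 1 of the 15 fell, Cd59a, which encodes a membrane inhibitor of the pore. Cd59a read 7.90, 7.72 and 7.80 in Nrf2-null livers and 9.53, 9.46 and 9.58 in wild-type livers, with a log2 fold change of -1.72 and an adjusted p of 0.00122. In Keap1-KD livers 0 of the 15 were called, and 0 had an unadjusted p under 0.05.

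Of 25 other coagulation genes 10 were measured and 0 were called in any comparison with wild-type livers on 12 arrays, while 1 was lower in Nrf2-null and 2 were lower in Keap1-HKO livers at an unadjusted p under 0.05. Proz, protein Z, was called lower in Keap1-HKO livers without the 2 arrays, at -0.37 (adjusted p 0.0399). Of 24 other positive acute-phase genes 17 were measured and 0 were called on 12 arrays. At an unadjusted p under 0.05, 3 were higher in Nrf2-null livers (3.3% of all genes). In Keap1-HKO livers 2 were higher and 1 lower (9.26% and 9.39% of all genes). Mt1 and Mt2, the metallothioneins, had log2 fold changes of 2.88 (adjusted p 0.0813) and 3.39 (adjusted p 0.0886) in Keap1-HKO livers, and both passed without the 2 arrays, at 3.12 (adjusted p 0.0415) and 4.11 (adjusted p 0.0142). Itih1, a further inter-alpha-trypsin inhibitor chain, was then called lower, at -0.53 (adjusted p 0.027). Saa3 had a log2 fold change of 1.08 in Nrf2-null livers (adjusted p 0.104). Of 10 negative acute-phase genes 9 were measured and 0 were called against wild-type livers on 12 arrays, with 2 lower in Keap1-HKO and 1 higher in Keap1-KD livers at an unadjusted p under 0.05. Apoa4, an apolipoprotein, was lower in Keap1-HKO than in Keap1-KD livers, with a log2 fold change of -1.46 and an adjusted p of 0.0406. Without the 2 arrays Apoa1, the main protein of high-density lipoprotein, and Igf1 were called lower in Keap1-HKO livers.

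Of 25 genes that regulate the acute phase 18 were measured, and 1 was called against wild-type livers on 12 arrays. Lifr, the receptor of leukemia inhibitory factor, which signals through STAT3, read 11.14, 11.31 and 10.62 in Keap1-HKO livers and 12.27, 12.66 and 12.71 in wild-type livers. The groups did not overlap (log2 fold change -1.52, adjusted p 0.00766). Nfkbia, the inhibitor of NF-kappa B, had a log2 fold change of 1.09 in Nrf2-null livers (adjusted p 0.0684) and passed without the 2 arrays (adjusted p 0.0415). Il1rap, a chain of the interleukin-1 receptor, was then called lower in Keap1-HKO livers, at -0.61 (adjusted p 0.0185). Stat3 itself read 9.41, 8.93 and 8.82 in Keap1-HKO livers and 8.74, 9.02 and 8.86 in wild-type livers, which overlap.

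Of the 47 members 39 had 1 probe set and 8 had several. Among these 8 the probe sets of a gene differed in sign for 3 genes in Nrf2-null, 0 in Keap1-KD and 2 in Keap1-HKO livers against wild-type livers. None of the 8 is among the 5 called members. In Keap1-HKO livers F10 had a log2 fold change of -0.0047, and its other 2 probe sets had -0.90 and -0.73.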

How the data were processed

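Liver RNA of 12 mice was hybridised to Affymetrix mouse arrays. Per the study's methods, the authors normalised the scanner files with gcRMA, took log2, and dropped every probe set that exceeded an intensity of 100 in no group. The deposited log2 values were used as they are, and no depth applies to arrays: the number of arrays limits the precision. Of 9622 probe sets, 371 listed several symbols and 697 none, and both kinds were left out. The probe set with the highest mean over the 12 arrays stood for each of 5856 genes.

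One linear model over 4 genotypes was fitted to all genes (limma 3.58.1 under R 4.3.3, moderated by eBayes, with 8 residual and 2.19 prior degrees of freedom). P-values were two-sided and adjusted by Benjamini and Hochberg over all genes, and called under 0.05. Each array is 1 mouse, so that p-values cover the spread between mice. Percent changes are of un-logged means, with the SEM of the first genotype named. The fit was tested on simulated data. The 3 comparisons with wild-type livers share the same wild-type arrays. Array medians lay between 8.22 and 8.37. Deviations of same-numbered arrays from their genotype means correlated at 0.787, 0.685 and 0.699 for Nrf2-null with Keap1-HKO livers, 0.29, 0.205 and 0.149 for Nrf2-null with Keap1-KD livers, and 0.215, 0.165 and 0.105 for Keap1-HKO with Keap1-KD livers. Of these only the last pair was compared, so the block is given beside it. With wild-type livers at least 1 of the 3 correlations of Nrf2-null, Keap1-KD or Keap1-HKO livers was under 0.1. They were 0.164, 0.215 and 0.0722 for Nrf2-null, 0.201, 0.18 and -0.0556 for Keap1-KD, and 0.333, 0.394 and -0.157 for Keap1-HKO livers. Nothing in the labels ties the numbers together.

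In each class and comparison the text names every called member and otherwise the 3 with the lowest p, and the members of highest and lowest mean and of widest spread. Further members, such as those called without 2 arrays, were chosen after their values were seen. The members, the gene lists and the alternatives were chosen with earlier results of these data known. Promoter windows are those of RefSeq.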

Additional observations from a re-analysis of the deposited data

How the results depend on the processing

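The result of each named gene was computed under 22 alternatives, which leave out Duncan's test. The counts of each comparison also had Duncan's test, and the F test and the class medians had fewer alternatives. The share of all genes called under the same setting stands in brackets. Against wild-type livers, the count of Nrf2-null members called was 6 with array quality weights (5%), 1 with a replicate block (F11, 0.751%), and 8 and 10 with Duncan's multiple range test on log2 values (5.4%) and un-logged ones (5.05%). The Keap1-KD count was 1 and 3 with Duncan's test (2.25% and 2.08%). The Keap1-HKO count, 5 on 12 arrays (3.94%), was 3 with arrays centred on their median (3.55%). It was 7 with an intensity trend and robust prior (3.98%), 17 with weights (18.4%), and 12 without the 2 arrays that stood apart (11.5%). With only the 2 groups compared it was 0 (0.837%), where Lcn2 and C8b had limma adjusted p of 0.0838 and 0.0867. With Duncan's test it was 14 and 15 (12% and 11.5%), and without a single array 2 to 6 (1.52% to 4.64%). With the block it was 10 (6.51%), the 5 and C8a, C9, F11, Fga and Itih4. Against Keap1-KD livers the Keap1-HKO count, 1 on 12 arrays (1.43%), was 4 with the trend (1.38%) and 8 with weights (9.02%). It was 0 with only the 2 groups (0.359%), 2 with the block (2.13%) and 2 without the 2 arrays (5.74%). With Duncan's test it was 8 and 7 (9.61% and 8.79%), and without a single array 0 to 1 (0.359% to 1.95%). The F test called 10 with the trend (5.12%), 20 with weights (22.8%) and 10 without the 2 arrays (12.6%). Without a single array it called 2 to 6 (3.06% to 6.85%). The median log2 fold change of complement members in Keap1-HKO livers was -0.31 with the mean of all probe sets, -0.24 with weights, -0.24 without the 2 arrays, and -0.24 to 0.00722 without a single array. With the mean of all probe sets 2 signs in Nrf2-null livers reversed, Masp1 at 0.10 and F10 at -0.13. C8b and Lcn2 were called in Keap1-HKO against wild-type livers under 21 of 22 alternatives, C6 under 18, Crp under 10 and Fgb under 7. Weights were estimated gene by gene, because the default estimate did not converge. Same-numbered arrays correlated between -0.157 and 0.787 over 18 pairs, 15 of them over 0.1. The cause of these changes was not tested.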
